A study of Mus musculus with 12 samples.

Results

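The proteasome genes were taken as the genes of the deposited expression table whose symbol begins with Psm, followed by a letter from a to g and a number. Psmb8, Psmb9 and Psmb10, which encode the immunoproteasome subunits, were left out of the set and are given only for comparison. The rule found 44 of the 11022 genes of the table. By known role these were 7 subunits of the alpha ring and 7 of the beta ring of the 20S core, 17 subunits of the 19S regulatory particle, 7 assembly chaperones, 4 activator caps and the inhibitor Psmf1. Psmc3ip matched by its symbol only, as it encodes a cofactor of meiotic recombination, and it is described apart from the others.

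The proteasome is the protease that degrades proteins tagged with ubiquitin. Its barrel-shaped core holds the proteolytic sites on the inner face of the beta rings, and the alpha rings gate the entry to it. The 19S particle recognises, unfolds and feeds in substrates through a base with a ring of ATPases and a lid that removes ubiquitin, while PA28 caps open the core without ubiquitin or ATP. In T cells proteasomes turn over signalling and cell cycle proteins and cut peptides for MHC class I, and interferon-inducible immunoproteasome subunits can take the places of the standard proteolytic subunits.

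The samples were 12 cultured populations of cytotoxic T lymphocytes (CTL) of the mouse, from which messenger RNA was measured. All groups were CTL from female mice of 9 to 13 weeks carrying the LCMV-P14 TCR transgene, a T cell receptor specific for the gp33 peptide of a virus, and lymph nodes or spleens of 3 mice gave the 3 replicates. The cells were activated for 48 h with the peptide and cytokines, grown for 5 days with interleukin 2 (IL-2) and, after a rest of 1 h, left without peptide (Unstimulated) or given 100 ng per mL of the peptide for 4 h (TCR). Other cultures received the peptide together with 10 µM IC87114, an inhibitor of PI3K p110δ (TCR+PI3Kdi), or with 2 µM PD184252, an inhibitor of the kinase MEK (TCR+MEKi). All 4 groups had 3 samples and were kept in 20 ng per mL IL-2 with DMSO as the vehicle, and the transgene gives the T cells a single specificity, which limits what the groups stand for. The comparisons ask how receptor triggering changed proteasome transcripts and how far this depended on either kinase.

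All 9 listed CD8 T cell markers were high, between 106 and 13582 FPKM (fragments per kilobase of exon, scaled to library size, the deposited unit). Cd4 lay between 0.28 and 3.65 FPKM, and the listed B cell, myeloid and erythroid markers were not in the table. H2-Ab1 and Cd74 of antigen-presenting cells reached at most 14.3 FPKM and Klrb1c of natural killer cells 6.23 FPKM, and their part in the results was not tested. The summed FPKM of all genes rose from between 470420 and 495945 in Unstimulated samples to between 620715 and 666922 in TCR samples, and lay between 524343 and 585849 in samples with an inhibitor. The deposited FPKM had been scaled by TMM, which equalises the bulk of the genes. Rescaling every sample to the same sum (the TPM scale) moved the median log2 fold change of all genes from -0.01 to -0.41 for TCR against Unstimulated. It moved the median from 0.02 to 0.19 for TCR+PI3Kdi against TCR, from 0.01 to 0.26 for TCR+MEKi against TCR and from -0.01 to 0.07 for TCR+MEKi against TCR+PI3Kdi. Because the proteasome differences were small, each was also read under this scale and under quantile normalisation, and a call that passed under all 3 scalings is stated as such. As these were whole cultures, fewer cells of a kind and less RNA per cell cannot be told apart.

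RefSeq promoter windows of 300 bases (250 before and 50 after a transcription start, GRCm38.p6) were found for 37 of the 44 genes, 40 windows in all. The windows shown belong to the base chaperone gene Psmd5, the lid gene Psmd8 and the PA28 beta gene Psme2, which rose after TCR stimulation under all 3 scalings, to the active-site genes Psmb5 and Psmb6, and to the ATPase gene Psmc6, which fell most with the MEK inhibitor. They lie at chr2:34870913-34871212 (minus strand), chr7:29180624-29180923 (minus strand), chr14:55591052-55591351 (minus strand), chr14:54617946-54618245 (minus strand), chr11:70525107-70525406 (plus strand) and chr14:45329574-45329873 (plus strand) and are written 5′ to 3′ on the strand of the gene. Capitals mark the GC box GGGCGG, the letters bound by Sp1-type factors, in the first 3 windows and the antioxidant response element TGACNNNGC, the letters bound by NRF1 and NRF2, in the last 3, on either strand.
Psmd5: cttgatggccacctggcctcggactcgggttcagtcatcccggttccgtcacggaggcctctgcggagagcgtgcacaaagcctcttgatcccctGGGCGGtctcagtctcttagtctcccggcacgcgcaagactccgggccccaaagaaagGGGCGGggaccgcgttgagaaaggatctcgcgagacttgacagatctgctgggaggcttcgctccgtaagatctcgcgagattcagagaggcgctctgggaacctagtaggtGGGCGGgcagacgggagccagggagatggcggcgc
Psmd8: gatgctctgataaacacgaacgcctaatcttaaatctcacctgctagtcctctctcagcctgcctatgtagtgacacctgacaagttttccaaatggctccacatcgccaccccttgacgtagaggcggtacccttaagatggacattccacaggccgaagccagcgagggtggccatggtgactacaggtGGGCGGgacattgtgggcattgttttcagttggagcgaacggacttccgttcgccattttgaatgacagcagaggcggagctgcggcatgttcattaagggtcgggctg
Psme2: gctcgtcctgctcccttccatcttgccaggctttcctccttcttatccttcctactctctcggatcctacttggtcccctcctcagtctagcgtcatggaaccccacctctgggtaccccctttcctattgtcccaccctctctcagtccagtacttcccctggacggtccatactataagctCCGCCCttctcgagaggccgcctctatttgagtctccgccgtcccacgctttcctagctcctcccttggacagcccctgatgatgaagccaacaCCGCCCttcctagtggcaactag
Psmb5: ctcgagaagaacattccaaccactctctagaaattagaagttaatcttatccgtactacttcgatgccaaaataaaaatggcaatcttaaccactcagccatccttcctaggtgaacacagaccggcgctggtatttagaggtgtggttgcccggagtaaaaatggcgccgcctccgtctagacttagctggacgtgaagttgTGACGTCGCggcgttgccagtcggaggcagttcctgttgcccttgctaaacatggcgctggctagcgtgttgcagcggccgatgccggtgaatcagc
Psmb6: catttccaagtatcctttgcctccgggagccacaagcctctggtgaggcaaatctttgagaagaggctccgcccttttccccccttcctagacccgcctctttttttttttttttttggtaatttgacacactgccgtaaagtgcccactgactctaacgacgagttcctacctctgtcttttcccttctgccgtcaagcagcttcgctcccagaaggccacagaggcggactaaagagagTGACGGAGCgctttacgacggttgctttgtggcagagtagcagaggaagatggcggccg
Psmc6: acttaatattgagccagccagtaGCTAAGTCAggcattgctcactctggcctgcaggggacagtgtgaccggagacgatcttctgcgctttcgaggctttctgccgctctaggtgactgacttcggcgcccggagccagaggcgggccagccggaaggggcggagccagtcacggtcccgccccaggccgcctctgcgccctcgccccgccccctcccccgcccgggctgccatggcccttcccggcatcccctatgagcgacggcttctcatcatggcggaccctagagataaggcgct
The antioxidant response element letters were present in the windows of 6 of 37 proteasome genes (16.2%), beside 17.1% of the genes of the table. Both Psmb5 and Psmb6 held them close to the start, with their first base at positions -47 and -9 relative to it, whereas in Psmc6 it lay at -227. The GC box letters were found in 22 of 37 proteasome genes (59.5%) and in 69.8% of the genes of the table. The windows printed were picked by hand, and that of Psme2 is the first of 2. Of the other genes that rose under all 3 scalings, Psmd11 held the GC box letters, while Psmg3 and Psme3 did not. The CCAAT letters were found in 35.1% of the proteasome genes and 43.4% of the genes of the table, and the interferon-gamma activated site TTCNNNGAA in 5.4% and 8.4%. The interferon-stimulated response element, searched as GAAA, any 2 bases and GAAA, was found in 5 of 37 proteasome genes (13.5%) and in 3.9% of the genes of the table. The 5 genes were Psmb3, Psmd4, Psmd9, Psme1 and Psmg4. All motifs were searched on both strands, the 2 interferon motifs can overlap, and a match is a run of letters, not a bound site.

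Proteasome transcripts were abundant in every group. In Unstimulated CTL the median over the 44 genes was 118 FPKM, and in the other groups it was 124 (TCR), 113 (TCR+PI3Kdi) and 108 FPKM (TCR+MEKi). The 14 core subunits had a median of 193 FPKM, with group means from 90.4 FPKM for Psmb5 to 259 FPKM for Psma2 in Unstimulated CTL. The 17 subunits of the 19S particle spanned a narrower range there, from 70.7 FPKM for Psmd11 to 133 FPKM for Psmc1. The assembly chaperones, which act on intermediates and are absent from the finished particle, were lower, between 14.2 FPKM (Psmd9) and 37.4 FPKM (Psmg2). Psme1 (PA28 alpha) was the most abundant of all 44 at 301 FPKM, Psme1 and Psme2 (PA28 beta) together summed to 553 ± 47.3 FPKM (SD, n = 3), and the nuclear cap Psme4 and the inhibitor Psmf1 were near 17 FPKM.

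After 4 h of peptide most proteasome genes moved little, and a small number rose or fell by more. On the deposited scale 21 of 44 genes (47.7%) rose in TCR against Unstimulated CTL, beside 33.6% of all genes tested, and 5 (11.4%) fell, beside 34.9% of all genes (limma, Benjamini-Hochberg adjusted p under 0.05). The median log2 fold change of the 44 genes was 0.14, against -0.01 over all genes, but under the TPM scale it was -0.27 and under quantile normalisation -0.01. Relative to the median of all genes the family stood higher by 0.15 on the deposited scale, by 0.14 under the TPM scale and by 0.04 with quantile normalisation. The numbers past the test moved with the scaling for the family and for all genes alike. On the TPM scale 6 proteasome genes were higher and 27 lower, beside 15.3% and 60.9% of all genes, and with quantile normalisation 12 were higher and 18 lower, beside 31.3% and 37.0% of all genes. Under all 3 scalings 6 genes were higher (15.1% of all genes were) and 5 were lower (33.3% of all genes were). The TPM scale moved the median of all genes to -0.41, so a fall was far more likely to keep its call than a rise. Of all genes 3674 of 3852 lower calls were kept, and 1660 of 3707 higher calls. No proteasome gene rose more than 2-fold (8.87% of all genes did), and only Psmc3ip fell by more than 2-fold (11.1% of all genes did). Set against the summed FPKM of each sample, the 44 genes made up 1.13 ± 0.0208% in Unstimulated CTL and 0.97 ± 0.012% in TCR samples (SD, n = 3).

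**Figure D1:**
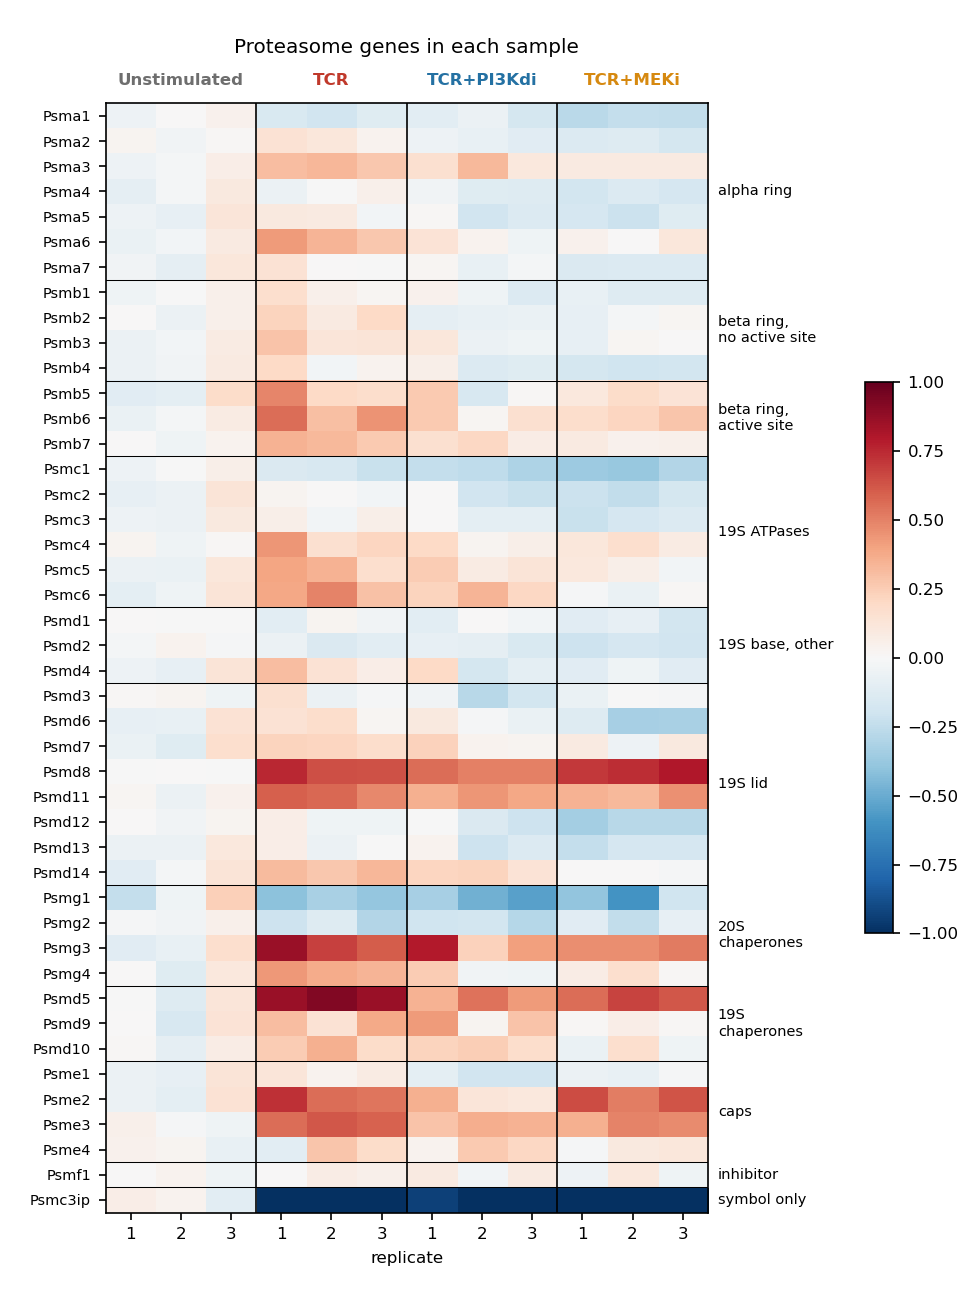
FPKM of each of the 44 proteasome genes (rows, grouped by role) in each of the 12 samples (columns), as log2 of the ratio to the mean of the Unstimulated samples. The colour range ends at -1 and 1, which Psmc3ip passes. On this scale Psmd5, Psmg3, Psmd8, Psme2 and Psme3 are red in all TCR samples and Psmg1 and Psmc3ip blue, while most alpha ring and 19S genes stay pale.

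**Figure D2:**
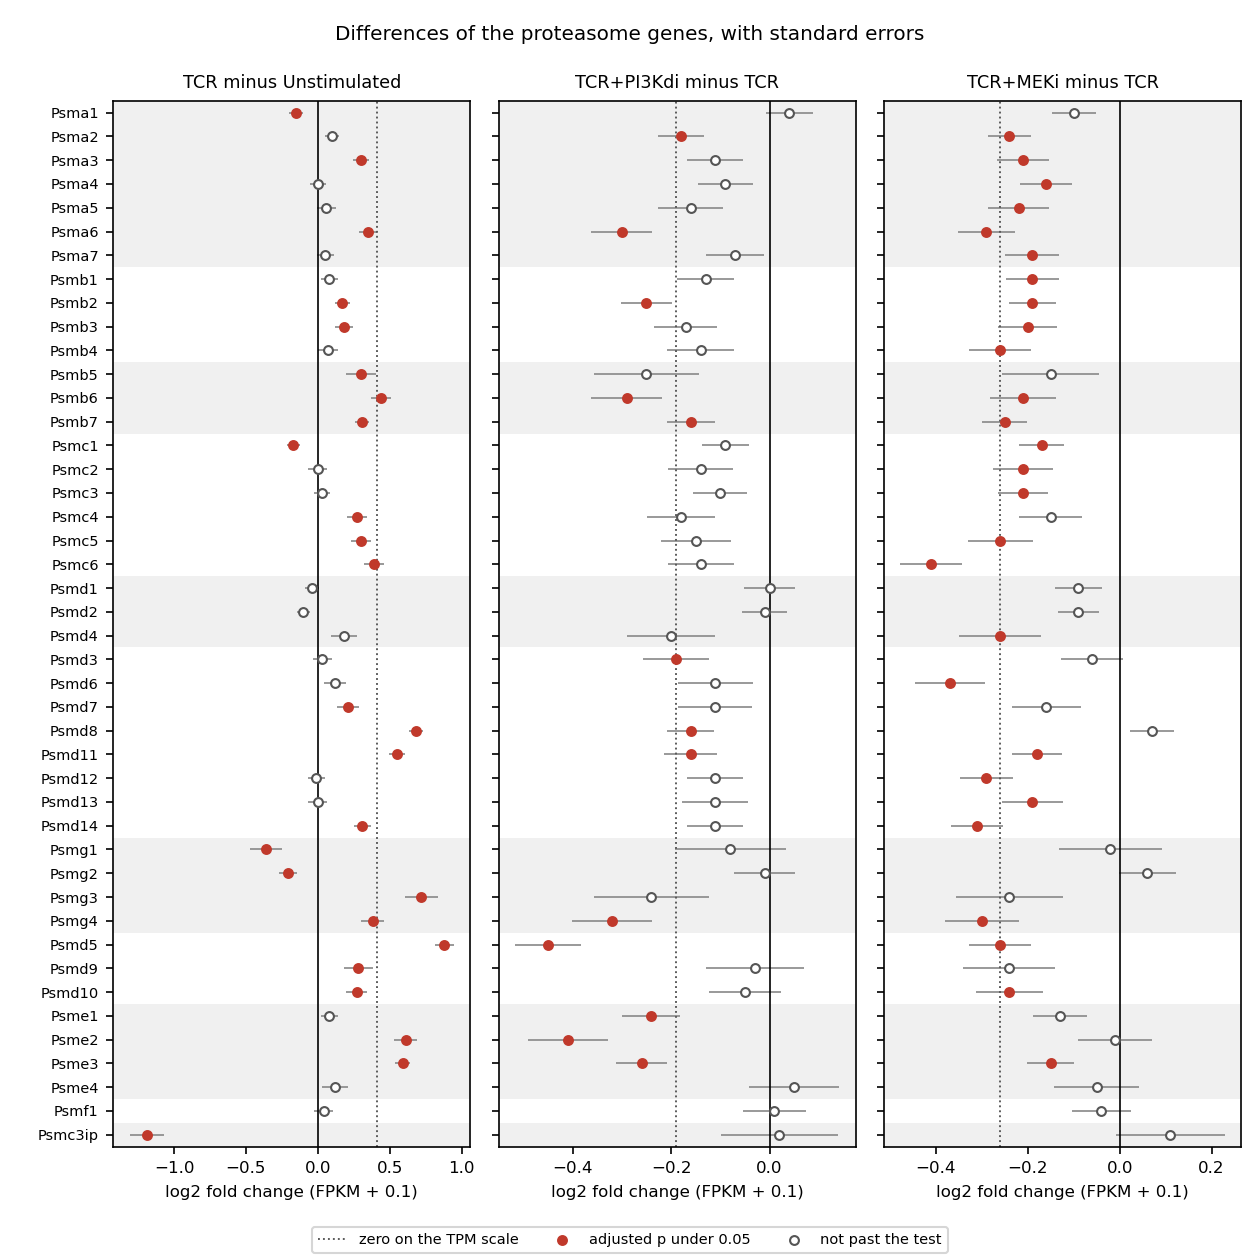
Log2 fold change on the log2(FPKM + 0.1) scale (points, with standard errors as bars) of each proteasome gene in 3 comparisons, with filled points at an adjusted p under 0.05. Shaded bands separate roles, and the dotted line marks where 0 would lie on the TPM scale. In TCR against Unstimulated most genes lie left of that line, Psmd5, Psmg3, Psmd8, Psme2, Psme3 and Psmd11 lie well to its right and Psmb6 just right of it, and in the inhibitor comparisons most genes lie between it and 0.

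The largest rise was that of Psmd5 (S5b), a chaperone that holds ATPase modules during assembly of the 19S base and leaves before the particle is complete. Psmd5 (chr2:34849734-34874968, mm10, minus strand) measured 33.1, 30.4 and 36 FPKM in Unstimulated CTL and 60.3, 62.9 and 60.4 FPKM in TCR samples, so that the groups lay far apart. The log2 fold change was 0.88 ± 0.067 (SE, adjusted p = 2.08e-08), with 0.47 under the TPM and 0.80 under the quantile scaling. The other 2 base chaperones, Psmd9 (p27) and Psmd10 (gankyrin), rose by 0.28 and 0.27 (adjusted p = 0.0229 and 0.0049), but were at -0.13 and -0.15 on the TPM scale and did not pass the test there. Exon bases of Psmd9 overlap those of a gene on the opposite strand over 25.5% of their length, and strand use in counting is not stated, so its value is uncertain.

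Among the chaperones of the 20S core the genes went in opposite directions. Psmg3 (PAC3, chr5:139823592-139826885), which pairs with Psmg4 below the forming alpha ring, measured 24.2, 24.9 and 29.5 FPKM in Unstimulated and 47.8, 42 and 40 FPKM in TCR samples. This was a log2 fold change of 0.72 ± 0.117 (adjusted p = 6.39e-05), and 0.31 and 0.65 under the other scalings. Psmg4 (PAC4) rose from 29.8 ± 2.27 to 38.9 ± 1.35 FPKM (SD, n = 3), a log2 fold change of 0.38 (adjusted p = 0.000641) that was -0.03 on the TPM scale. Psmg1 (PAC1, chr16:95979933-95990960) and Psmg2 (PAC2), which form the other pair of chaperones on the alpha ring, were lower after TCR stimulation under all 3 scalings. Psmg1 measured 23.7, 27.2 and 33 FPKM without peptide and 21, 22.3 and 21.3 FPKM with it, and its log2 fold change of -0.36 ± 0.113 (adjusted p = 0.0104) was -0.23 and no longer passed the test without Unstimulated replicate 3. Psmg2 went from 37.1, 36.4 and 38.6 FPKM to 32.4, 34.2 and 30.4 FPKM, a log2 fold change of -0.21 ± 0.062 (adjusted p = 0.00786).

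In the 19S lid 4 of 8 genes rose and none fell on the deposited scale, beside 33.6% and 34.9% of all genes. Psmd8 and Psmd11 rose under all 3 scalings. Psmd8 (Rpn12, chr7:29174188-29180701), a lid subunit that joins late in lid assembly, measured 127, 128 and 127 FPKM in Unstimulated CTL. In TCR samples it measured 215, 199 and 198 FPKM, a 1.6-fold higher mean and a log2 fold change of 0.68 ± 0.048 (adjusted p = 9.37e-09), with 0.27 and 0.46 under the TPM and quantile scalings. With this rise Psmd8 became the most abundant 19S transcript, while in Unstimulated CTL that place was held by Psmc1. Psmd11 (Rpn6, chr11:80428615-80473248), which braces the lid against the core and is named here because it passed under all scalings, rose from 71.6, 67.8 and 72.7 FPKM to 107, 105 and 98.6 FPKM (log2 fold change 0.55 ± 0.054, adjusted p = 3.08e-07). The deubiquitinase Psmd14 (Rpn11) rose on the deposited scale from 118 ± 9.99 to 146 ± 3.23 FPKM (adjusted p = 0.000214), with a log2 fold change of 0.31 that was -0.10 on the TPM scale. Psmd12, Psmd13, Psmd3 and Psmd6 did not pass the test, with log2 fold changes from -0.01 to 0.12.

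Of the 6 ATPases of the 19S base 3 were higher and 1 was lower on the deposited scale, beside 33.6% and 34.9% of all genes. Psmc6 (Rpt4) measured 89.4, 93.3 and 105 FPKM without peptide and 126, 135 and 117 FPKM with it, and the groups did not overlap (log2 fold change 0.39 ± 0.067, adjusted p = 0.000101, and -0.02 on the TPM scale). Psmc1 (Rpt2, chr12:100110154-100123405) was lower under all 3 scalings and went from 128, 132 and 138 FPKM to 120, 119 and 114 FPKM, a log2 fold change of -0.17 ± 0.048 (adjusted p = 0.00524). The large scaffold subunits Psmd1 and Psmd2 and the ubiquitin receptor Psmd4 did not pass the test, and their log2 fold changes ranged from -0.10 to 0.18.

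The caps differed among themselves. Psme2 (PA28 beta, chr14:55587441-55591113) rose from 242, 236 and 278 FPKM to 417, 372 and 365 FPKM, the highest level of any proteasome gene in TCR samples (log2 fold change 0.61 ± 0.081, adjusted p = 8.59e-06). Psme1 (PA28 alpha), its partner in the ring, measured 290, 285 and 330 FPKM and then 328, 310 and 319 FPKM, so that its groups overlapped (log2 fold change 0.08, adjusted p = 0.222, and -0.33 on the TPM scale). The ratio of Psme2 to Psme1 within a sample, which no scaling of whole samples changes, was 0.836 ± 0.00769 in Unstimulated and 1.21 ± 0.0625 in TCR samples (SD, n = 3). Of the distinct 100-base stretches of Psme2 transcripts 18.4% also occur in other genes, mostly in the near-copy Psme2b, which was not in the table. Psme3 (PA28 gamma, chr11:101316213-101323537), which forms a nuclear cap by itself, rose from 143, 137 and 134 FPKM to 203, 212 and 208 FPKM (log2 fold change 0.59 ± 0.051, adjusted p = 8.94e-08) and passed under all 3 scalings. Psme4 (PA200) stayed between 15.6 and 20.3 FPKM over both groups and Psmf1 (PI31) between 16.9 and 18.4 FPKM, and their differences of 0.12 and 0.04 did not pass the test.

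**Figure D3:**
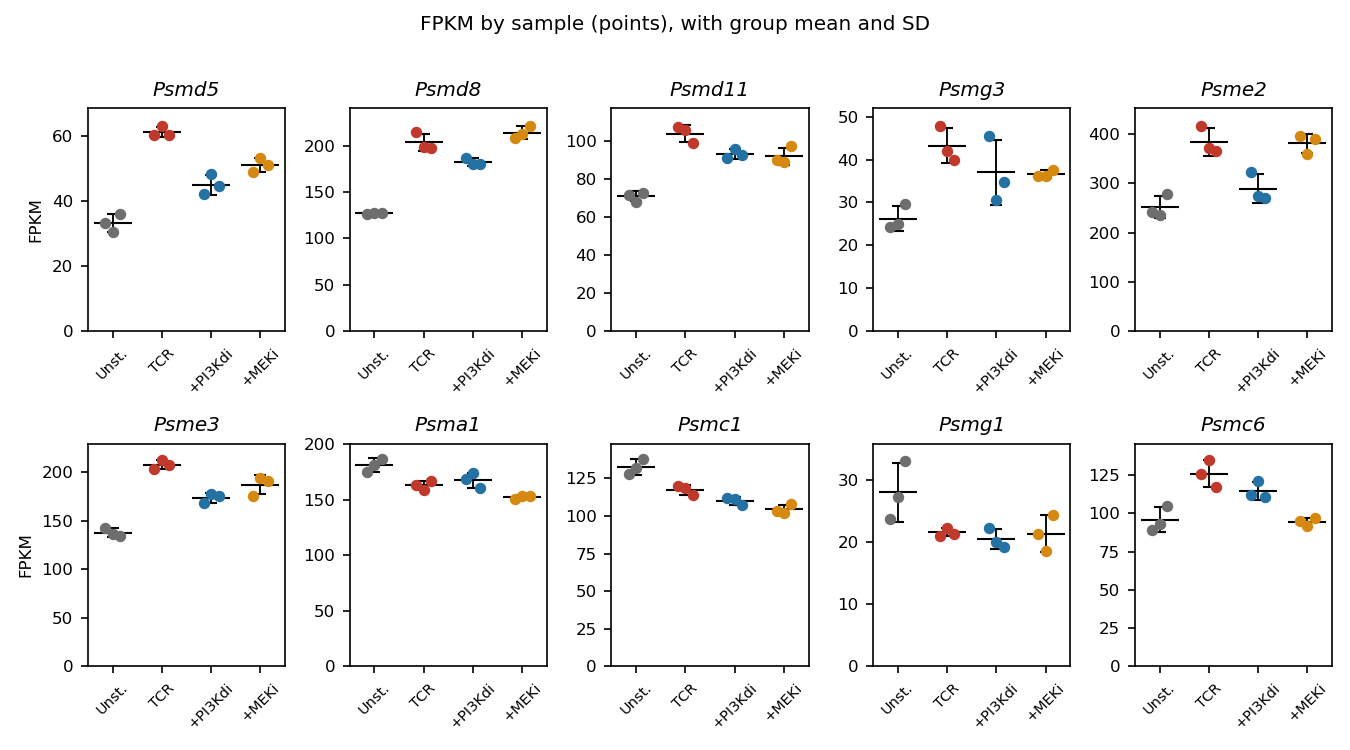
FPKM of 10 proteasome genes in each sample (points), with the mean and SD of each group of 3 (black); every axis starts at 0. Psmd5, Psmd8, Psmd11, Psmg3, Psme2 and Psme3 are higher in all 3 TCR samples than in all 3 Unstimulated samples, Psma1, Psmc1 and Psmg1 are lower, and Psmc6 with the MEK inhibitor lies in the Unstimulated range.

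In the 20S core 7 of 14 genes rose and Psma1 fell on the deposited scale, beside 33.6% and 34.9% of all genes. Of these Psma1 alone kept its call under all 3 scalings, but the shift of the TPM scale favours a fall, so this does not set it apart. Psma1 (alpha 6, chr7:114264606-114276118) measured 175, 182 and 187 FPKM in Unstimulated and 163, 159 and 167 FPKM in TCR samples, a log2 fold change of -0.15 ± 0.048 (adjusted p = 0.0102). Psma6 (alpha 1) showed the largest rise of the alpha ring, from 164, 169 and 183 FPKM to 232, 218 and 207 FPKM (log2 fold change 0.35 ± 0.062, adjusted p = 0.000166, and -0.07 on the TPM scale). Each of the beta subunits that carry a proteolytic site rose on the deposited scale. Psmb6 (beta 1, caspase-like) went from 137, 141 and 151 FPKM to 210, 176 and 195 FPKM, with a log2 fold change of 0.44 ± 0.072 (adjusted p = 7.09e-05). Psmb7 (beta 2, trypsin-like) went from 181, 175 and 185 FPKM to 229, 226 and 216 FPKM, with a log2 fold change of 0.31 ± 0.049 (adjusted p = 5.51e-05). Psmb5 (beta 5, chymotrypsin-like) measured 83.6, 84.6 and 103 FPKM and then 127, 104 and 102 FPKM, so that its groups overlapped (0.30 ± 0.106, adjusted p = 0.0224). On the TPM scale these log2 fold changes were 0.02 for Psmb6, -0.10 for Psmb7 and -0.12 for Psmb5, none past the test. Some 22.2% of the 100-base stretches of Psmb5 transcripts recur in other genes.

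Against these, the immunoproteasome counterparts fell under all 3 scalings. Psmb8, the counterpart of Psmb5, went from 379, 381 and 452 FPKM to 227, 202 and 223 FPKM (log2 fold change -0.89 ± 0.081, adjusted p = 1.55e-07). Psmb9, the counterpart of Psmb6, went from 169 ± 15.4 to 70.3 ± 6.53 FPKM, and Psmb10, the counterpart of Psmb7, from 109 ± 6.82 to 58.7 ± 6.09 FPKM (SD, n = 3). The ratio of Psmb6 to Psmb9 was 0.855, 0.879 and 0.808 in Unstimulated samples and 2.74, 2.77 and 2.77 in TCR samples. The ratio of Psmb5 to Psmb8 rose 2.28-fold to 0.511 ± 0.0494 and that of Psmb7 to Psmb10 2.32-fold to 3.84 ± 0.451. In each pair all TCR ratios lay above all Unstimulated ratios, and an exact two-sided permutation test of 3 against 3 cannot give a p below 0.1. At the RNA level Psmb8 still stood above Psmb5 in every sample.

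**Figure D4:**
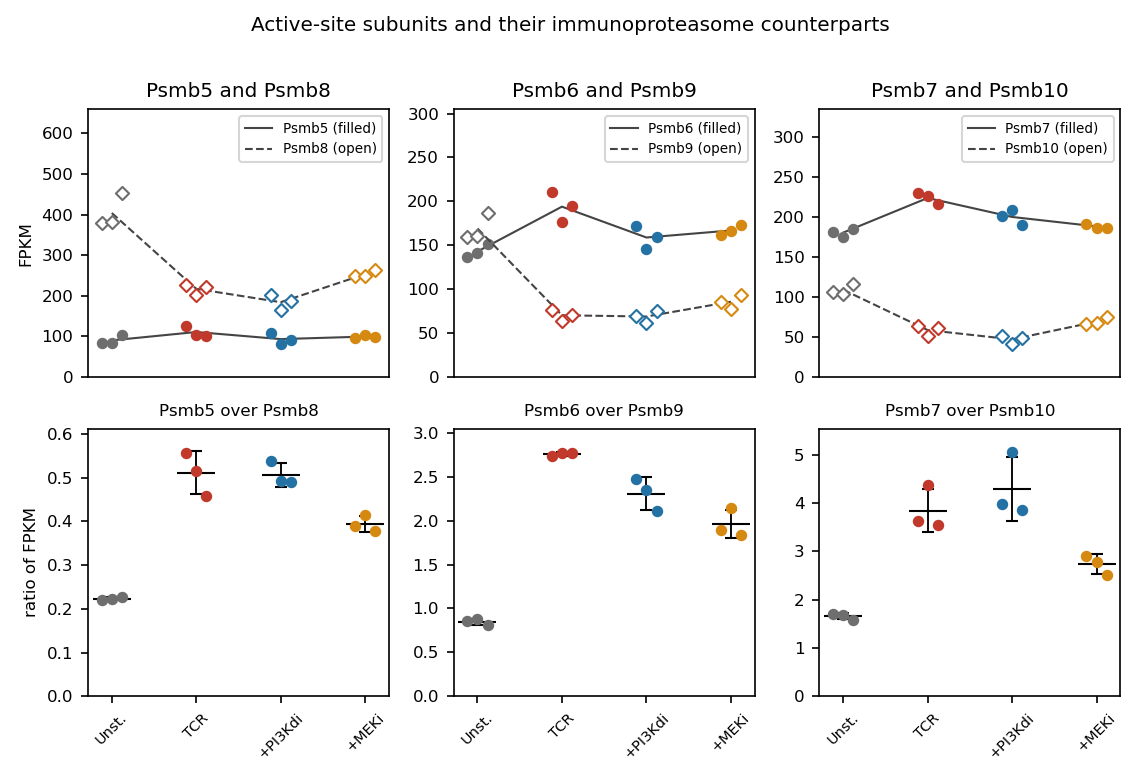
Top, FPKM of each standard active-site subunit (filled) and its immunoproteasome counterpart (open) in every sample, with lines joining group means. Bottom, the ratio of the pair in each sample with mean and SD of the group of 3. The ratios are lowest in Unstimulated samples (0.223, 0.847 and 1.66 on average) and higher in all 3 stimulated groups.

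Psmc3ip, the gene matched by symbol only, gave the largest fold change of the 44. It fell from 18.7, 18.4 and 16.6 FPKM to 8.65, 6.43 and 8.39 FPKM (log2 fold change -1.19 ± 0.119, adjusted p = 4.27e-07), and it lay between 7.17 and 9.36 FPKM with either inhibitor. Its exons overlap those of Mlx on the opposite strand over 21.2% of their bases.

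With the PI3K p110δ inhibitor part of the family was lower than in TCR samples on the deposited scale, and relative to the median of all genes the family stood at -0.15 on both that scale and the TPM scale, and at -0.02 with quantile normalisation. Of the 44 genes 13 (29.5%) were lower in TCR+PI3Kdi than in TCR samples, beside 12.8% of all genes, and 0 were higher at an adjusted or an unadjusted p under 0.05 in limma, beside 12.7% of all genes. The median log2 fold change was -0.14, with 0.02 over all genes, and on the TPM scale it was 0.05, with 0.19 over all genes. On that scale 3 genes were higher and 2 lower, beside 34.6% and 5.04% of all genes. With quantile normalisation the median was -0.01, with 2 genes higher and 3 lower, beside 11.8% and 10.3% of all genes. Under all 3 scalings Psmd5 and Psme2 were lower (4.97% of all genes were) and no gene was higher (10.0% of all genes were), also at an unadjusted p.

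Psmd5 measured 42.2, 48.2 and 44.5 FPKM with the PI3K inhibitor, all below the TCR samples and all above the Unstimulated ones (log2 fold change to TCR -0.45 ± 0.067, adjusted p = 0.00027). Psme2 measured 323, 274 and 271 FPKM, a log2 fold change of -0.41 ± 0.081 (adjusted p = 0.00191), and its lowest samples lay within the Unstimulated range. Psme1 (282, 263 and 264 FPKM, adjusted p = 0.00779) and Psme3 (168, 178 and 175 FPKM, adjusted p = 0.00202) were lower by -0.24 and -0.26 on the deposited scale. Thus 3 of the 4 caps were lower on that scale, beside 12.8% of all genes. The next largest falls were those of Psmg4 (35.5, 29.1 and 29 FPKM, log2 fold change -0.32), Psma6 (189, 176 and 168 FPKM, -0.30) and Psmb6 (172, 145 and 160 FPKM, -0.29), with adjusted p of 0.00895, 0.00267 and 0.0089. Psmb7 (201, 209 and 190 FPKM) was lower by -0.16 (adjusted p = 0.0263), while Psmb5 (108, 81 and 91.3 FPKM) did not pass the test (adjusted p = 0.0982). None of the 6 ATPases passed the test, with log2 fold changes from -0.18 to -0.09. Psme4 lay between 17.2 and 20.2 FPKM and Psmf1 between 17.1 and 18.5 FPKM.

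The number of genes lower with the PI3K inhibitor rested in part on single cultures. TCR+PI3Kdi replicate 1 held the highest value of its group for 31 of the 44 genes, and without it 22 genes were lower. Without TCR replicate 1, which held the highest value of its group for 29 genes, 8 genes were lower, and without TCR+PI3Kdi replicate 3 the number was also 8. A fit of the TCR and TCR+PI3Kdi groups alone gave 8.

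With the MEK inhibitor more genes were lower, each by a little, on the deposited scale, and relative to the median of all genes the family stood at -0.20 on both that scale and the TPM scale, and at -0.07 with quantile normalisation. In TCR+MEKi against TCR samples 27 of 44 genes (61.4%) were lower, beside 18.2% of all genes, and 0 were higher at an adjusted or an unadjusted p under 0.05, beside 18.9% of all genes. The core subunits were part of this with 12 of 14 genes lower, as were 11 of the 17 genes of the 19S particle, 3 of 7 chaperones and 1 of 4 caps. The median log2 fold change was -0.19, with 0.01 over all genes, and on the TPM scale it was 0.07, with 0.26 over all genes. On that scale 10 genes were higher and 0 lower (1 at an unadjusted p), beside 50.2% and 5.88% of all genes. With quantile normalisation the median was -0.04, with 1 gene higher and 8 lower, beside 18.8% and 15.5% of all genes. Under all 3 scalings no proteasome gene was higher (16.4% of all genes were) and none lower (5.87% of all genes were), with 0 and 1 at an unadjusted p. Leaving out TCR+MEKi replicate 1 left 17 genes lower on the deposited scale.

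The largest fall with the MEK inhibitor was that of the ATPase gene Psmc6, which measured 95.2, 91.5 and 96.9 FPKM. All 3 lay below the TCR samples and within the Unstimulated range (log2 fold change to TCR -0.41 ± 0.067, adjusted p = 0.000278, and -0.15 on the TPM scale). The lid genes Psmd6 (74, 64.1 and 64.4 FPKM) and Psmd14 (118, 118 and 117 FPKM) differed from TCR by -0.37 ± 0.076 and -0.31 ± 0.057 on the log2 scale (adjusted p = 0.00145 and 0.000775). Psmg4 (31.4, 33.4 and 30.1 FPKM) and Psma6 (177, 173 and 186 FPKM) followed with -0.30 and -0.29 (adjusted p = 0.0101 and 0.00212). Psmb6 (162, 166 and 173 FPKM) and Psmb7 (192, 186 and 186 FPKM) were lower by -0.21 and -0.25 (adjusted p = 0.0302 and 0.00129) on the deposited scale, with 0.05 and 0.01 on the TPM scale. Psmb5 (97, 103 and 99.3 FPKM) did not pass the test.

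Of the 44 genes 17 did not pass the test with the MEK inhibitor on the deposited scale, among them Psmd8 and Psme2. Psmg2, Psmg1 and Psmd3 also lay near 0, with log2 fold changes of 0.06, -0.02 and -0.06. Psmd8 measured 208, 213 and 222 FPKM with the MEK inhibitor, a log2 fold change to TCR of 0.07 (adjusted p = 0.255). It passed the test as higher on the TPM scale (0.33) and with quantile normalisation (0.22), beside 50.2% and 18.8% of all genes. Psme2 measured 396, 360 and 391 FPKM, with a log2 fold change of -0.01 (adjusted p = 0.944). On the TPM scale Psme2 was at 0.25 and passed the test as higher, and with quantile normalisation it was at 0.17 and did not pass. Psme1 (289, 287 and 299 FPKM) and Psme4 (16.7, 18 and 18.1 FPKM) did not pass the test on the deposited scale, nor did Psmf1 (16.8, 18.7 and 16.9 FPKM), while Psme3 (176, 194 and 192 FPKM) was lower by -0.15 (adjusted p = 0.0315). The immunoproteasome genes went the other way, with Psmb8 at 249, 248 and 263 FPKM. Their differences were 0.22 (Psmb8), 0.29 (Psmb9) and 0.24 (Psmb10) on the log2 scale, with adjusted p of 0.0428, 0.0261 and 0.0435 on the deposited scale. All passed under all 3 scalings, but the TPM scale moved the median of all genes up to 0.26 here, which favours a rise. Of all genes 1805 of 2080 higher calls were kept. With the MEK inhibitor the ratios of Psmb5 to Psmb8, Psmb6 to Psmb9 and Psmb7 to Psmb10 were 0.394 ± 0.0183, 1.96 ± 0.159 and 2.73 ± 0.205 (SD, n = 3), in each pair below all TCR samples. With the PI3K inhibitor they were 0.506 ± 0.0268, 2.31 ± 0.184 and 4.29 ± 0.657, of which that of Psmb6 to Psmb9 lay below all TCR samples and the others overlapped them. In limma Psmb8 and Psmb10 were lower with that inhibitor by -0.24 and -0.32 on the deposited scale (adjusted p = 0.0431 and 0.0164). Psmb9 did not pass the test (-0.03), and none was lower under all 3 scalings. Between the inhibitors Psmb8, Psmb9 and Psmb10 were higher with the MEK inhibitor by 0.46, 0.31 and 0.56, under all 3 scalings (14.4% of all genes were).

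**Figure D5:**
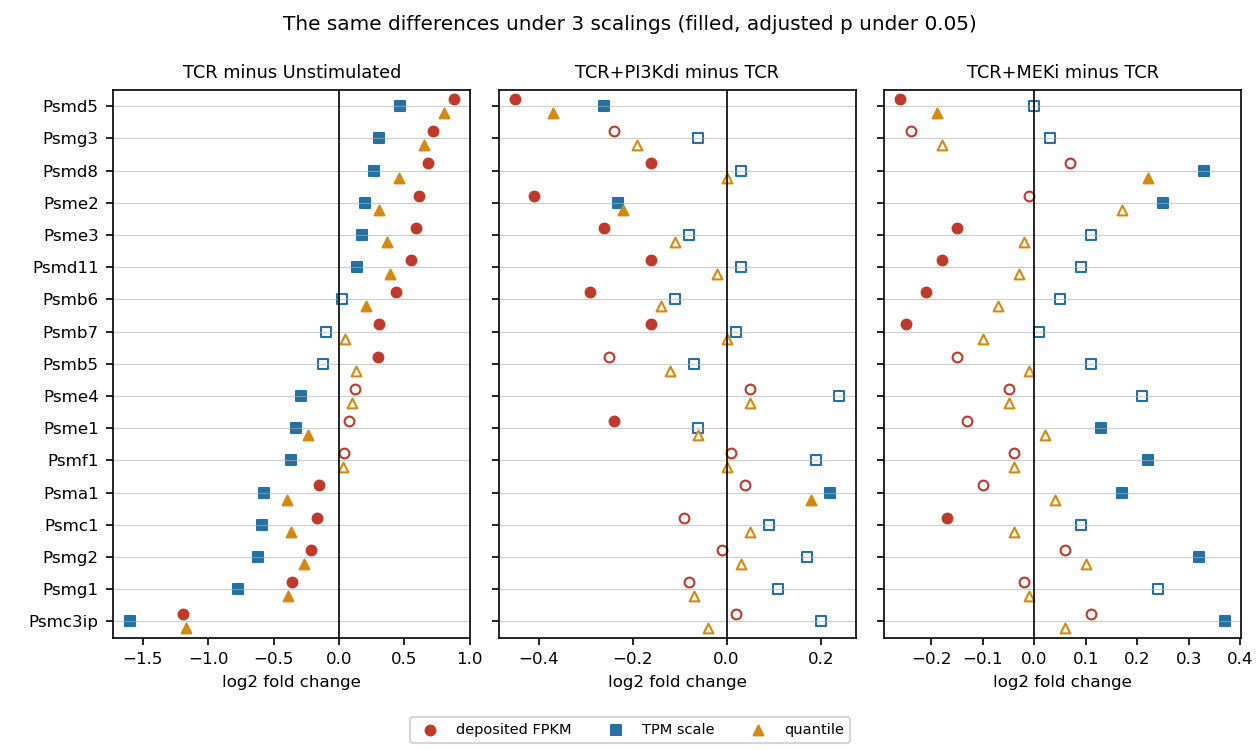
Log2 fold change of 17 proteasome genes in 3 comparisons under the deposited scale (circles), the TPM scale (squares) and quantile normalisation (triangles), filled at an adjusted p under 0.05. In TCR against Unstimulated the first 6 genes lie right of 0 and the last 5 left of 0 under every scaling, in TCR+PI3Kdi against TCR only Psmd5 and Psme2 are filled and left of 0 under every scaling, and in TCR+MEKi against TCR no gene is.

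Setting the inhibitors against each other tests whether their effects differed, since both share the TCR samples. In TCR+MEKi against TCR+PI3Kdi 2 of 44 genes were higher (14.5% of all genes were) and 5 lower (14.4% of all genes were), and on the TPM scale 7 were higher and 1 lower (21.1% and 9.24% of all genes). Psme2 was higher with the MEK inhibitor by 0.40 ± 0.081 (adjusted p = 0.00173) and Psmd8 by 0.23 ± 0.048 (adjusted p = 0.00237), and both passed under all 3 scalings (14.4% of all genes did). The ratio of Psme2 to Psme1 was 1.31 ± 0.0568 with the MEK inhibitor and 1.07 ± 0.0639 with the PI3K inhibitor (SD, n = 3), and the groups did not overlap. Lower with the MEK inhibitor were Psmc6 by -0.28 ± 0.067 (adjusted p = 0.0064), which passed under all 3 scalings (9.17% of all genes were lower), and Psmd6, Psmd14, Psmd12 and Psma1 by -0.27, -0.20, -0.18 and -0.14 (adjusted p between 0.0151 and 0.0432). In the PI3K inhibitor group Psmd12 measured 97.7, 88.3 and 84.8 FPKM and in the MEK inhibitor group 77.2, 80.6 and 80.6 FPKM, without overlap. The number of lower genes ranged from 1, without TCR+MEKi replicate 3, to 5, and it was 2 without TCR+PI3Kdi replicate 1 and 3 without TCR+MEKi replicate 1 or 2. Psma1 no longer passed the test with the replicate number as a block (4 genes lower).

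Against Unstimulated CTL, all samples with the PI3K inhibitor lay above all Unstimulated samples for 11 proteasome genes (33.4% of all genes) and below them for 9 (32.6% of all genes). With the MEK inhibitor they lay above for 10 genes (32.7% of all genes) and below for 17 (34.0% of all genes). Psmd5, for example, remained between 42.2 and 53.1 FPKM in all 6 samples with an inhibitor, above every Unstimulated sample.

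Levels relative to the mean of the 7 alpha ring genes of the same sample give a view that no scaling of whole samples changes. The alpha ring mean was 193 ± 9.1 FPKM in Unstimulated, 206 ± 4.98 in TCR, 188 ± 5.72 in TCR+PI3Kdi and 178 ± 1.01 in TCR+MEKi samples (SD, n = 3). Psmd8 stood at 0.661 ± 0.0308 of that mean in Unstimulated CTL, at 0.99 ± 0.0255 with TCR stimulation, at 0.97 ± 0.0135 with the PI3K inhibitor and above it, at a mean of 1.2 ± 0.0333, with the MEK inhibitor. Psme2 went from 1.31 ± 0.0562 to 1.87 ± 0.0947, and stood at 1.54 ± 0.112 and 2.14 ± 0.106 with the inhibitors of PI3K and MEK. Psmd5 went from 0.172 ± 0.00856 to 0.298 ± 0.0105, and stood at 0.239 ± 0.0198 and 0.286 ± 0.012. Psmc6 stood at 0.498 ± 0.0196 in Unstimulated CTL, at 0.613 ± 0.0395 and 0.609 ± 0.0345 in TCR and TCR+PI3Kdi samples, and at 0.53 ± 0.0135 with the MEK inhibitor. By contrast Psmb1, a beta subunit without a proteolytic site, stayed between 1.17 and 1.18 in all 4 group means.

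Genes that act on or above the proteasome moved in both directions after TCR stimulation. The list for the transcription factor NRF1, which induces proteasome genes after it is cut loose from the endoplasmic reticulum, had 6 of 10 genes higher and 2 lower on the deposited scale (33.6% and 34.9% of all genes), and 2 higher and 2 lower under all 3 scalings (15.1% and 33.3% of all genes). Nfe2l1, which encodes NRF1, rose from 26.1 ± 1.17 to 63.7 ± 0.52 FPKM (SD, n = 3), a log2 fold change of 1.28 ± 0.052 (adjusted p = 1.68e-11) that passed under all 3 scalings and was larger than that of any of the 44 genes. It measured 50.3 ± 1.67 FPKM with the PI3K inhibitor and 66.6 ± 2.75 FPKM with the MEK inhibitor. Its small MAF partner Mafk rose by 0.83 (adjusted p = 1.44e-08) and Mafg was lower by -0.16 (adjusted p = 0.0376), and Ngly1, the glycanase that processes NRF1, was lower by -0.43 (adjusted p = 2.21e-05). Among 15 proteasome partners outside the symbol rule 4 (26.7%) were higher and 5 (33.3%) lower, shares near those of all genes. Under all 3 scalings 5 were lower and 0 higher in limma, beside 33.3% and 15.1% of all genes. At an unadjusted p under 0.05 these numbers were 6 and 0. The ubiquitin receptor Adrm1 (Rpn13) rose by 0.33 and Akirin2, which carries proteasomes into the nucleus, by 0.31, while the phosphatase Ublcp1 fell by 1.37 and the shuttle factor Ubqln2 by 0.67 on the log2 scale. On the TPM scale Adrm1 and Akirin2 were at -0.08 and -0.11.

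Within the Unstimulated, TCR and TCR+PI3Kdi groups most proteasome genes were highest in the same culture. This did not hold in TCR+MEKi, where 6, 18 and 20 genes were highest in replicates 1, 2 and 3. Unstimulated replicate 3 held the highest value of its group for 34 of the 44 genes, beside 38.1% of all genes, and TCR replicate 1 for 29, beside 37.7% of all genes. The coefficient of variation over 3 replicates had a median over the 44 genes between 2.99% (TCR+MEKi) and 6.27% (TCR+PI3Kdi) and was highest for Psmg3 in TCR+PI3Kdi samples at 20.7%. Leaving out each replicate in turn left between 17 and 24 genes higher and between 4 and 6 lower in TCR against Unstimulated.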

How the data were processed

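RNA was sequenced from 12 cultures with a stranded mRNA kit on 1 lane (paired reads of 100 bases). According to the study's methods and the submitters' processing notes, the authors aligned reads with STAR (2.4.2a) to mm10, counted them per RefSeq gene with Subread (1.5.0), removed weakly expressed genes with filterByExpr and scaled by TMM. The deposited table holds FPKM that the authors obtained with edgeR from these counts and the summed exon length of each gene. The sources do not say if strand was used in counting. The values carry 2 decimals and counts were not recovered from them, so no counting interval is given. The study's methods give a typical yield per lane but no depth per sample.

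FPKM were transformed to log2(FPKM + 0.1) for all 11022 genes and fitted with limma (3.58.1, R 4.3.3), with 1 mean per group over all 12 samples and moderated variances with an intensity trend. The study itself fitted limma to counts, which were not used here. Benjamini-Hochberg adjustment ran over all genes of the table, and an adjusted p under 0.05 was the threshold. Fold changes are on the log2(FPKM + 0.1) scale, which understates changes of weakly expressed genes. Ratios of FPKM and summaries used Python 3.11.15, NumPy 2.4.6, pandas 2.3.3 and SciPy 1.17.1. The fit was tested on simulated data for TCR against Unstimulated with 11022 genes, of which 50 were changed at each size. It recovered 28% at 1.2-fold, 74% at 1.5-fold, 96% at 2-fold and 100% at 4-fold. Far fewer genes were changed there than in the data, where 68.6% of all genes passed the test in this comparison. The adjusted threshold was therefore stricter in the simulation, and these shares do not give the recovery in the data.

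Values are given per sample, for each comparison, for the 5 largest rises and 5 largest falls among proteasome genes past the threshold, for Psmb5, Psmb6 and Psmb7, and for the caps and the inhibitor. Of the lists of NRF1 genes and proteasome partners the 2 largest rises and falls after TCR stimulation are named, and a further list is not reported here. Psmd11 falls outside this rule and was chosen after its values were seen, as were the calls under all 3 scalings. The genes, lists and tests were chosen with earlier results of these data known. Psma8, Psmb11 and Psme2b were not analysed here.

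Replicates carry numbers from 1 to 3 in each group. Deviations from the group means of same-numbered samples correlated across 9899 genes with r of 0.105, 0.153 and 0.0037 for TCR and Unstimulated, and between 0.122 and 0.451 for the other comparisons. The numbers were taken to pair the samples in all comparisons but the first. The data do not settle this, since the r values of the comparisons overlap and differently numbered samples were not compared. The methods name 3 mice without tying them to numbers. Unless a replicate block is named, the p-values are from the fit without the pairing. Where cultures share a mouse, p-values measure the spread between cultures. Alternatives were pseudocounts of 1 and 0.01, a minimum mean of 1 FPKM, the TPM scale, quantile normalisation, a replicate block, the compared groups alone, no trend, and leaving out each replicate. Gene positions are from GENCODE on GRCm38, and promoter windows from RefSeq on GRCm38.p6.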

Additional observations from a re-analysis of the deposited data

How the results depend on the processing

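Pseudocounts of 1 and 0.01 and a minimum mean of 1 FPKM left every number of proteasome genes past the threshold and every median of the 4 comparisons as given. With the replicate block, which uses the replicate numbers, the numbers higher and lower were 21 and 5 for TCR against Unstimulated, 0 and 13 for TCR+PI3Kdi against TCR, 0 and 28 for TCR+MEKi against TCR, and 2 and 4 for TCR+MEKi against TCR+PI3Kdi. Of the named genes Psma1 alone lost its call under the block, in the last of these, with its log2 fold change still at -0.14. Compared groups alone gave 8 lower genes with the PI3K inhibitor, and the fit without a trend 3 lower genes in TCR+MEKi against TCR+PI3Kdi.

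The scaling moved most. On the TPM scale the numbers higher and lower were 6 and 27, 3 and 2, 10 and 0, and 7 and 1 in the same order, with medians of -0.27, 0.05, 0.07 and 0.02. After quantile normalisation they were 12 and 18, 2 and 3, and 1 and 8 in the first 3 comparisons, with medians of -0.01, -0.01 and -0.04. The TPM scale shifts all genes of a sample by nearly the same amount, so the family kept its place relative to the median of all genes (0.14, -0.15, -0.20 and -0.06, against 0.15, -0.15, -0.20 and -0.06 on the deposited scale), while quantile normalisation brought it closer in the first 3 comparisons (0.04, -0.02 and -0.07) for a cause that was not tested. For the same reason a change of sign on the TPM scale does not set a gene apart from others. Many proteasome genes changed sign there, such as Psma6 (-0.07) and Psmc6 (-0.02) after TCR stimulation. The lists that follow hold only the genes that the rule above names for each comparison. Among these, the genes with such a change were, after TCR stimulation, Adrm1 (-0.08), Akirin2 (-0.11), Psmb5 (-0.12), Psmb7 (-0.10), Psme1 (-0.33), Psme4 (-0.29) and Psmf1 (-0.37). With the PI3K inhibitor they were Psmb7 (0.02) and Psmb9 (0.15), and with the MEK inhibitor Psmb5 (0.11), Psmb6 (0.05), Psmb7 (0.01), Psme1 (0.13), Psme2 (0.25), Psme3 (0.11), Psme4 (0.21) and Psmf1 (0.22), while Psmf1 was at 0.03 between the inhibitors. Under quantile normalisation they were Psme1 after TCR stimulation (-0.24), Psmb7 (0.00), Psmb9 (0.06) and Psmf1 (0.00) with the PI3K inhibitor, and Psme1 (0.02) and Psme2 (0.17) with the MEK inhibitor.

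Leaving out each replicate in turn gave medians from 0.12 to 0.19 for TCR against Unstimulated, with 17 to 24 genes higher and 4 to 6 lower. With the PI3K inhibitor 8 to 22 genes were lower (medians from -0.17 to -0.10), with the MEK inhibitor 17 to 23 (medians from -0.21 to -0.16), and between the inhibitors 1 to 5 were lower and 2 to 3 higher (medians from -0.08 to -0.02). Some values close to 0 changed sign without 1 culture, with the PI3K inhibitor Psmb9 (-0.03 to 0.05), Psme4 (-0.06 at the lowest) and Psmf1 (-0.01 at the lowest), and with the MEK inhibitor Psme2 (-0.05 to 0.05) and Psme4 (0.03 at the highest). The cause of these differences was not tested. Depth per sample is not known, so differences of weakly expressed genes such as Psmc3ip or Psmd9 carry a counting error that was not estimated. At 3 cultures per group a change of 1.2-fold was recovered for 28% of genes in the test on simulated data for TCR against Unstimulated. Far fewer genes were changed in that test than in the data, so this share does not give the recovery in the data.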
